A study of Mus musculus with 6 samples.

Results

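The genes for 6 subunits of the NMDA receptor, Grin1, Grin2a, Grin2b, Grin2c, Grin2d and Grin3a, were examined in the basolateral amygdala of male mice. They were chosen by name, and all 6 were among the 26264 gene symbols of the count tables and among the 14739 genes that passed a filter on low counts. The control group (Ctrl) had no stress and the other group (CRS) went through chronic restraint, a stressor that repeatedly immobilises the animal; each group had 3 biological replicates according to the series' design text. Every replicate gave 1 library of total RNA depleted of ribosomal RNA, and its number, 1 to 3, comes from its title. Whether a replicate was 1 mouse or pooled tissue was not stated. The labels name no strain, age or length of stress.

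NMDA receptors are glutamate-gated channels that pass calcium when glutamate and a co-agonist, glycine or D-serine, are bound and the membrane is depolarised, which lets them act as coincidence detectors. Grin1 encodes GluN1, the subunit that functional receptors require, and it assembles with GluN2 subunits, which bind glutamate and set the kinetics, or with GluN3 subunits, which bind glycine. In the basolateral amygdala these receptors are known for their part in the acquisition and extinction of conditioned fear.

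The 6 genes are related in sequence, which bears on how well short reads can be told apart between them. Over all annotated transcripts (GENCODE M21, GRCm38) of the 15 gene pairs, the longest run of bases shared exactly was 34, between Grin2b and Grin2c, against reads of 100 bases. The encoded proteins were 28.7 to 56.6% identical over their aligned residues, with Grin2a and Grin2b the most alike pair. The genes lie on chromosomes 2 (Grin1), 16 (Grin2a), 6 (Grin2b), 11 (Grin2c), 7 (Grin2d) and 4 (Grin3a).

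The libraries held 9859449 to 10233706 counts in genes, of which 21716 to 32529 fell in the 6 subunit genes. Among markers of the labelled tissue, Slc17a7, the vesicular glutamate transporter of cortical and basolateral amygdala projection neurons, was at 719 to 1184 CPM (counts brought to a common library total, with TMM scaling factors). The libraries differed in what else they held. Ttr, the transthyretin gene of the choroid plexus, was at 2128, 3777 and 18.9 CPM in Ctrl 1 to 3 and at 2.87, 5553 and 8.34 CPM in CRS 1 to 3. Markers of striatal and central amygdala neurons summed to 2078, 1040 and 1292 CPM in the controls and to 426, 1007 and 1130 CPM under stress, so that CRS 1 stood lowest and Ctrl 1 highest. In such bulk samples, fewer cells of a type and less RNA per cell cannot be told apart.

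Grin1, which encodes the obligatory GluN1 subunit, was measured at 340, 341 and 381 CPM in Ctrl 1 to 3 and at 401, 338 and 363 CPM in CRS 1 to 3. The groups overlapped, with the highest and the lowest library both under stress. Ctrl averaged 354 ± 23.4 CPM and CRS 367 ± 31.5 CPM (SD, n = 3 per group). On the log2 scale CRS minus Ctrl was 0.05 ± 0.08 (SE; 95% interval -0.14 to 0.25; adjusted p = 0.997 in edgeR's quasi-likelihood test). In linear terms the interval runs from 0.908 to 1.19 times the control level. Without CRS 1 the value was -0.014. Grin1os, named as the opposite-strand transcript of Grin1, had 1 to 12 counts per library against 3358 to 3903 for Grin1; whether the counting used strand was not stated, so their reads may not be separable.

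Grin2b, which encodes GluN2B, the GluN2 subunit of early development and of extrasynaptic sites that adult forebrain neurons keep, had the most counts of the 6. It was at 1242, 1365 and 1677 CPM in Ctrl 1 to 3 and at 2097, 1589 and 1456 CPM in CRS 1 to 3. CRS 1 was the highest library, at 1.43 times the mean of the other 5, while Ctrl 3 lay above both other stress libraries. Ctrl averaged 1428 ± 224 CPM and CRS 1714 ± 339 CPM (SD, n = 3 per group), and CRS minus Ctrl was 0.26 ± 0.17 in log2 units (SE; 95% interval -0.13 to 0.66; edgeR adjusted p = 0.997). This was 1.20 times the control level, with an interval from 0.915 to 1.57 times. Without CRS 1 the log2 fold change was 0.09 ± 0.13, and without both Ctrl 1 and CRS 1 it was 0.0012.

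Grin2a encodes GluN2A, the subunit that joins synaptic receptors as the forebrain matures and that gives them faster kinetics. It was at 419, 457 and 538 CPM in Ctrl 1 to 3 and at 677, 467 and 494 CPM in CRS 1 to 3. CRS 1 was again the highest library, at 1.43 times the mean of the other 5, and Ctrl 3 the second highest. Ctrl averaged 471 ± 60.7 CPM and CRS 546 ± 114 CPM (SD, n = 3 per group), and CRS minus Ctrl was 0.21 ± 0.16 in log2 units (SE; 95% interval -0.17 to 0.59; edgeR adjusted p = 0.997). The value was 0.03 ± 0.11 without CRS 1 and -0.050 ± 0.10 without Ctrl 1 and CRS 1. The spread between CRS libraries, with a coefficient of variation of 20.9% for Grin2a and 19.7% for Grin2b, was the widest among the 6 genes in that group.

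Grin2c and Grin2d encode the GluN2 subunits with weaker magnesium block, of which GluN2C is best known from cerebellar granule cells and astrocytes and GluN2D from interneurons and early development. For Grin2c the Ctrl libraries had 42.9, 35.4 and 37.1 CPM and the CRS libraries 36.3, 34.2 and 38.4 CPM. Of the 6 genes, Grin2c alone had a log2 fold change below 0, at -0.08 ± 0.09 (SE; 95% interval -0.30 to 0.14; edgeR adjusted p = 0.997). Its highest library was Ctrl 1, and the value was 0.0066 without that library. Grin2d was near the lower end of what was tested, with 36 to 50 counts per library, or 4.97, 3.49 and 4.09 CPM in Ctrl 1 to 3 and 5.03, 3.63 and 4.17 CPM in CRS 1 to 3. CRS minus Ctrl was 0.03 ± 0.22 in log2 units (SE; 95% interval -0.46 to 0.53; edgeR adjusted p = 0.997), the widest interval of the 6. The sign turned with single libraries, to -0.099 without CRS 1 and to -0.076 without Ctrl 2. In linear terms it runs from 0.725 to 1.44 times the control level.

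Grin3a encodes GluN3A, a glycine-binding subunit that lowers calcium entry and is known for holding back spine maturation. It was at 109, 115 and 95.7 CPM in Ctrl 1 to 3 and at 124, 122 and 106 CPM in CRS 1 to 3. CRS 1 and CRS 2 were the highest libraries, yet CRS 3 lay below Ctrl 1 and Ctrl 2. Ctrl averaged 107 ± 9.95 CPM and CRS 117 ± 9.87 CPM (SD, n = 3 per group), and CRS minus Ctrl was 0.14 ± 0.09 in log2 units (SE; 95% interval -0.07 to 0.35; edgeR adjusted p = 0.997). It was 0.10 ± 0.10 without CRS 1, 0.07 ± 0.09 without Ctrl 3 and 0.21 ± 0.09 without CRS 3. The other GluN3 gene, Grin3b, which is not among the 6, had 0 to 4 counts per library and was not tested. Grina, whose product is a membrane protein and no channel subunit, averaged 247 ± 12.4 CPM in Ctrl and 254 ± 5.18 CPM in CRS (SD, n = 3 per group).

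**Figure D1:**
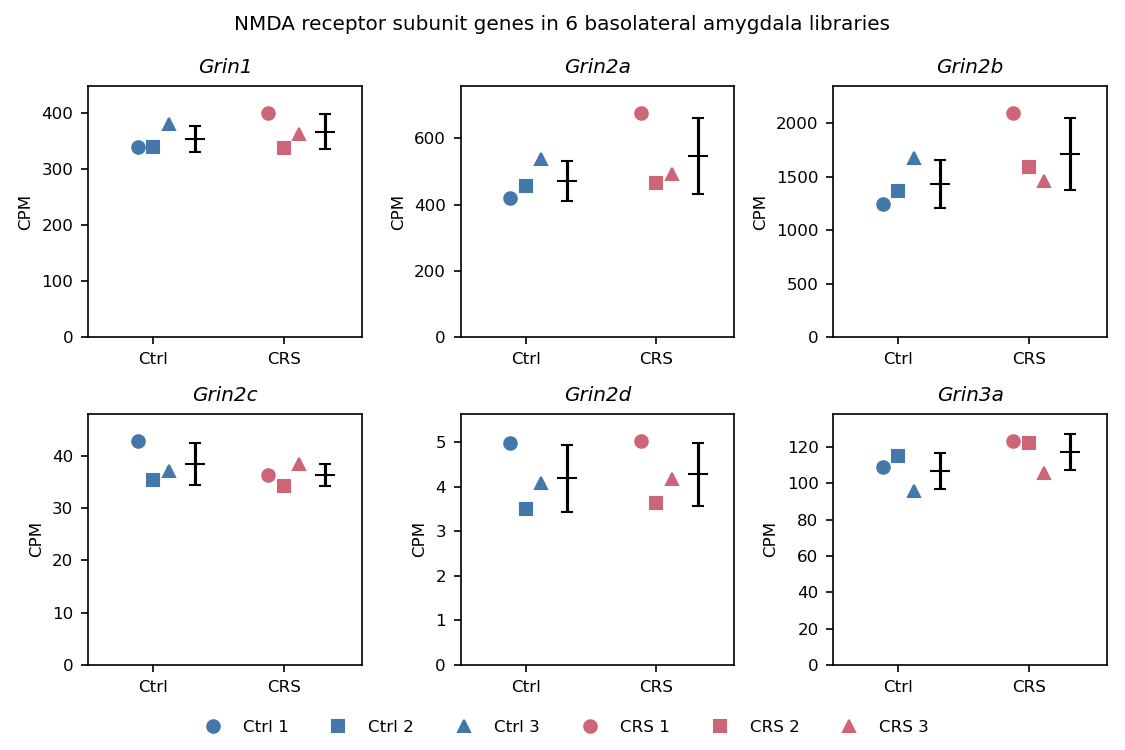
Level of each of the 6 subunit genes in CPM (vertical axes from 0, each on its own scale) in the 3 Ctrl and the 3 CRS libraries; the horizontal tick and bar beside each group are its mean and SD. CRS 1 is the highest library for Grin1, Grin2a, Grin2b, Grin2d and Grin3a, and the groups overlap for all 6 genes.

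Together, 0 of 6 subunit genes passed an adjusted p of 0.05, where 0% of the 14739 tested genes did in the same edgeR test. At an unadjusted p under 0.05 there were also 0 of 6, against 3.37% of all tested genes (496). DESeq2 called 2 genes, edgeR's likelihood ratio test 4 and limma-voom 0, none of them a subunit gene. Groups that did not overlap were seen for 0 of 6, against 8.28% of all tested genes (3.8% with CRS higher and 4.48% with CRS lower). The log2 fold change was above 0 in 5 of 6 genes, where 48.4% of all tested genes lay above 0, and the median of the 6 was 0.10 against -0.0044 over all tested genes. CRS 1 was the highest library for 5 of the 6 and for 22.6% of all tested genes. Without CRS 1, 3 of 6 were above 0, with a median of 0.0070. With libraries scaled to the summed counts of 16 pan-neuronal genes, 3 of 6 were above 0, with a median of -0.0022, where the median of all tested genes was -0.10.

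**Figure D2:**
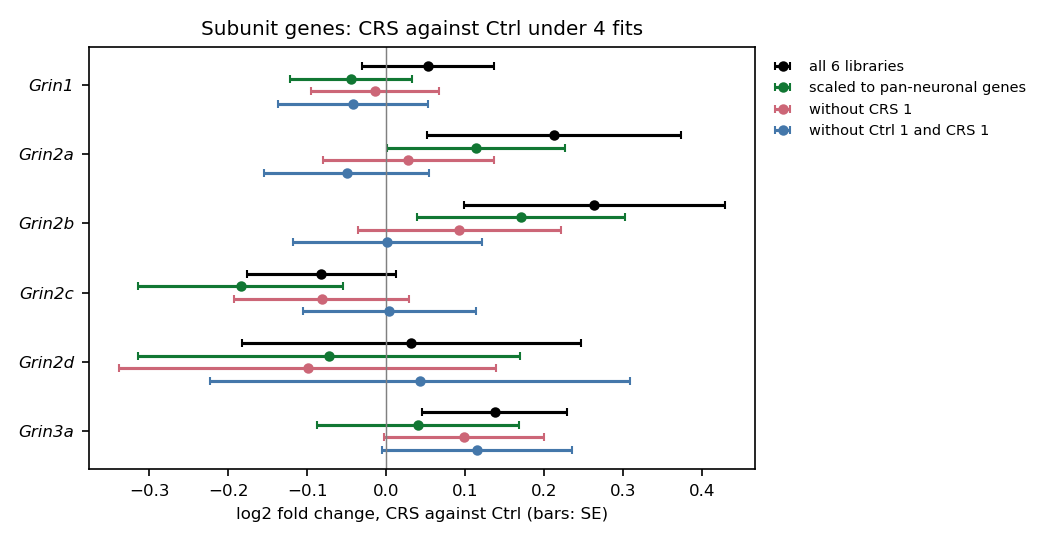
Log2 fold change of each subunit gene, CRS against Ctrl (horizontal axis), with SE as bars, in 4 edgeR fits: all 6 libraries, libraries scaled to pan-neuronal genes, without CRS 1, and without Ctrl 1 and CRS 1. For Grin2b the value goes from 0.26 with all libraries to 0.09 without CRS 1 and 0.0012 without Ctrl 1 and CRS 1.

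To compare the subunit genes with each other, CPM was divided by length in kb. Per kb of the transcript with the longest coding sequence, Grin1 stood highest at 79.1 to 93.7 CPM per kb over the 6 libraries. Grin2b followed at 51.6 to 87.2, Grin2a at 28.6 to 46.3 and Grin3a at 12.8 to 16.5 CPM per kb. Grin2c, at 8.77 CPM per kb in its highest library, and Grin2d, at 0.643 to 0.926 CPM per kb, were the lowest. Each library showed this order, although the ranges of Grin1 and Grin2b over libraries overlapped; those of all other neighbours in the order did not. The top of the order rests on the lengths used. Grin2b has a transcript of 24.1 kb, of which 4.45 kb are coding. Per kb of coding sequence, Grin2b was at 353 CPM per kb on average, 2.82 times Grin1 at 125, and Grin2a followed at 116. Per kb of all annotated exons, Grin2b was 1.70 times Grin1. The labels do not name the annotation used for counting, and which of Grin1 and Grin2b stood higher differed between these scales. In all 3 scales Grin3a, Grin2c and Grin2d took the last 3 places in that order.

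The shares of the 6 genes overlapped between the groups, and no test was run on them. Of their summed counts, Grin2b took 57.5, 58.9 and 61.4% in Ctrl 1 to 3 and 62.8, 62.2 and 59.2% in CRS 1 to 3, which is 59.3 ± 1.94% and 61.4 ± 1.95% (SD, n = 3 per group). Grin2a took 19.6 ± 0.162% and 19.5 ± 1.10%, and the controls lay within 19.4 to 19.7%. Grin1 took 15.8, 14.7 and 13.9% in Ctrl 1 to 3, and 13.2 and 14.7% in CRS 2 and CRS 3 with less in CRS 1; the group values were 14.8 ± 0.918% and 13.3 ± 1.37%. Here too CRS 1 was at one end, with the lowest share of Grin1 and the highest share of Grin2b. Grin3a took 4.51 ± 0.873% and 4.26 ± 0.547%, Grin2c 1.62 ± 0.327% and 1.33 ± 0.237%, and Grin2d 0.177 ± 0.0463% and 0.154 ± 0.0141%. No share separated the groups. Shares of counts per kb of transcript gave Grin1 42.0 ± 1.09% and 39.5 ± 2.43%, Grin2b 30.0 ± 2.08% and 32.5 ± 2.33%, and Grin2a 16.3 ± 0.706% and 17.0 ± 1.27% in Ctrl and CRS, again with overlap. Summed over the 6 genes, Ctrl averaged 2403 ± 297 CPM and CRS 2785 ± 483 CPM (SD, n = 3 per group). The groups overlapped, with Ctrl 3 (2733 CPM) above CRS 2 (2554 CPM) and CRS 3 (2461 CPM), and without CRS 1 the difference between the means fell from 383 to 105 CPM.

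**Figure D3:**
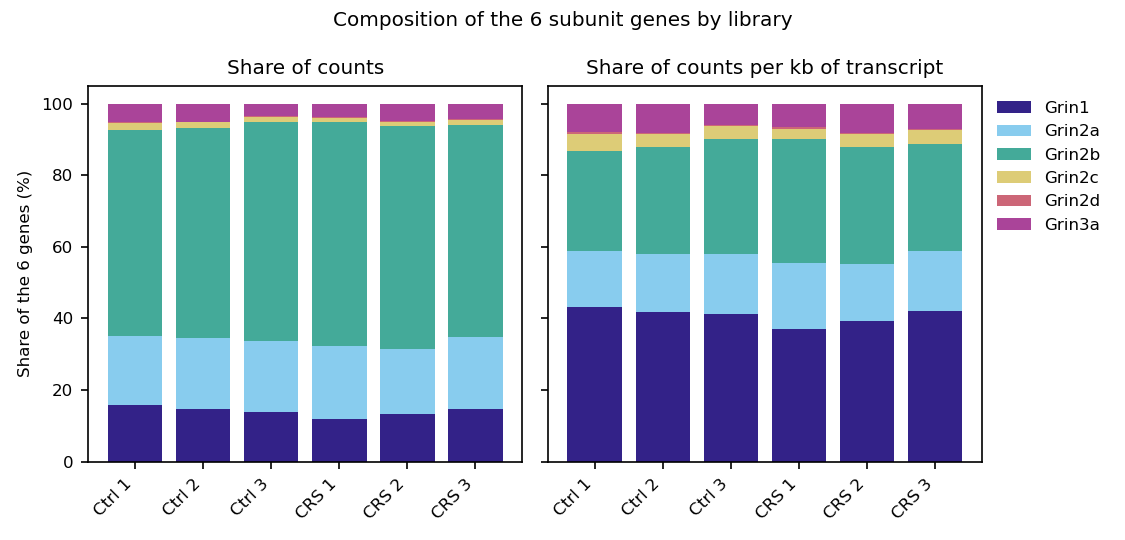
Share of each of the 6 subunit genes in their summed counts (left) and in their summed counts per kb of transcript (right), in percent, for each of the 6 libraries; the colours stack to 100%. Grin2b holds 57.5 to 62.8% of counts, Grin1 takes the largest share per kb of transcript in every library, and Grin2d is barely visible.

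The ratio of Grin2a to Grin2b is of interest because the proportion of GluN2A to GluN2B changes with synapse maturation and affects plasticity. The ratio of counts was 0.337, 0.334 and 0.321 in Ctrl 1 to 3 and 0.323, 0.294 and 0.339 in CRS 1 to 3. The lowest and the highest values were both from stressed mice, so the groups overlapped completely. The means were 0.331 ± 0.00889 and 0.319 ± 0.0230 (SD, n = 3 per group), a difference of -0.057 in the mean log2 ratio (two-sided exact permutation p = 0.7, 0.7 after adjustment over the 2 ratios tested). The highest ratio was 1.15 times the lowest, whereas Grin2a itself ranged 1.62-fold and Grin2b 1.69-fold over the same libraries. CRS 1, the library with the highest level of both genes, had a ratio within the range of the controls. Without CRS 2, the library with the lowest ratio, the difference was 0.00044.

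The ratio of Grin1 to the summed GluN2 genes was 0.199, 0.183 and 0.169 in Ctrl 1 to 3 and 0.142, 0.162 and 0.182 in CRS 1 to 3. CRS 1 and CRS 2 lay below all controls and CRS 3 lay between them. The difference in the mean log2 ratio was -0.19 (two-sided exact permutation p = 0.2, adjusted 0.4), where 3 libraries against 3 allow no p below 0.1. It was -0.096 without CRS 1 and -0.036 without Ctrl 1 and CRS 1.

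The levels of the subunit genes moved together only in part. Across the 6 libraries, Pearson's r of log2 CPM was 0.957 between Grin2a and Grin2b, 0.940 between Grin1 and Grin2a and 0.841 between Grin1 and Grin2b. Grin2c and Grin3a did not share this pattern, with r of -0.51 and 0.29 to Grin2b. These values describe 6 libraries with 1 common scaling, and CRS 1 is the highest library for the first 3 genes. Among 8050 genes with a mean of at least 20 CPM, the pattern most like that of Grin2b was that of Synj1 (r = 0.998), which encodes the phosphatase synaptojanin 1 of synaptic vesicle recycling, then Sobp (0.998) and the kinase gene Dyrk2 (0.996). For Grin2a it was that of Ddn (0.997), which encodes the postsynaptic protein dendrin, then Rnf41 (0.994) and Mapk8ip3 (0.994). For Grin1, Bmpr2 (0.991), the gene of a BMP receptor, and Sel1l3 (0.991) were among the 3 most alike. Many genes share such a pattern over so few libraries: 112 genes reached an r of 0.95 with Grin2b, 148 with Grin2a and 92 with Grin1.

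Cell type markers differed between the same libraries. Relative to the control mean on the log2 scale, the 17 striatal and central amygdala markers averaged 0.57, -0.43 and -0.14 in Ctrl 1 to 3 and -2.44, -0.48 and -0.48 in CRS 1 to 3, and 16 of the 17 were lowest in CRS 1. All 17 had a log2 fold change below 0 (median -0.85), 0 of them past the threshold. That median was -0.50 without Ctrl 1, -0.54 without CRS 1 and -1.27 without CRS 3, and without both Ctrl 1 and CRS 1 it was -0.19 with 4 of 17 above 0. The 16 oligodendrocyte markers averaged 0.41, -0.13 and -0.28 in controls and -0.58, -0.07 and -0.45 under stress (median -0.38, 0 of 16 past the threshold, and a median of -0.13 without Ctrl 1). The 14 markers of glutamatergic neurons averaged -0.23, -0.04 and 0.26 in controls and 0.27, -0.02 and 0.12 under stress. In these averages CRS 1 and Ctrl 3, the libraries with the highest Grin2a and Grin2b, were also highest. Ctrl 1 was lowest for the markers as for both genes. By the summed CPM of the 14, CRS 3 was highest (3121), above Ctrl 3 (3048) and CRS 1 (2940), and Ctrl 1 was again lowest (2224). The log2 fold change was above 0 in 13 of the 14 (median 0.12). That count was 7 of 14 without Ctrl 1 (median 0.0041) and 7 of 14 without CRS 1 (median 0.0076). Without both Ctrl 1 and CRS 1 it was 4 of 14 (median -0.12). Of these 14, 6 were highest in CRS 1, 7 were lowest in Ctrl 1 and 3 were both, Slc17a7 among them, as were Grin2a and Grin2b. Slc17a6, the other vesicular transporter gene in the list, named after its values were seen, was lowest in CRS 1 at 21.3 CPM. Lmo3, also named after its values were seen, was lowest in Ctrl 3 and CRS 1, at 160 and 161 CPM. The 16 pan-neuronal genes averaged -0.07, -0.02 and 0.09 in controls and 0.12, -0.02 and 0.13 under stress. The part of these markers in the levels of the subunit genes was not tested.

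Markers of the cells in which Grin2c and Grin2d are best known were measured too. The 13 astrocyte markers averaged 0.03, -0.02 and -0.01 in controls and -0.01, -0.20 and -0.16 under stress (median log2 fold change -0.14, 11 of 13 below 0). The 14 interneuron markers averaged 0.09, -0.08 and -0.01 in controls and -0.12, -0.14 and -0.09 under stress (median -0.10, 9 of 14 below 0). They include Gad1 (-0.23), Gad2 (-0.55) and Slc32a1 (-0.62), which mark GABAergic neurons in general and not interneurons alone. These 3 were highest in Ctrl 1 and lowest in CRS 1, and the rule for named genes does not take Gad2 and Slc32a1. Of all 14, 6 were lowest and 4 highest in CRS 1. With each library left out in turn, the astrocyte median ranged from -0.16 to -0.08 and the interneuron median from -0.14 to -0.05. Endothelial markers had a median of -0.20 (-0.28 to -0.10 with each library left out). The direction of 3 lists rested on single libraries. The choroid plexus median was -0.28 but 0.47 without Ctrl 2, 0.27 without CRS 1, 0.27 without CRS 3 and -4.89 without CRS 2. The thalamic median was -0.28 but 0.087 without Ctrl 2, and the microglial median -0.03 but 0.018 without Ctrl 1. With all libraries, 0 members of any of the 10 cell type lists passed the threshold over all genes.

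**Figure D4:**
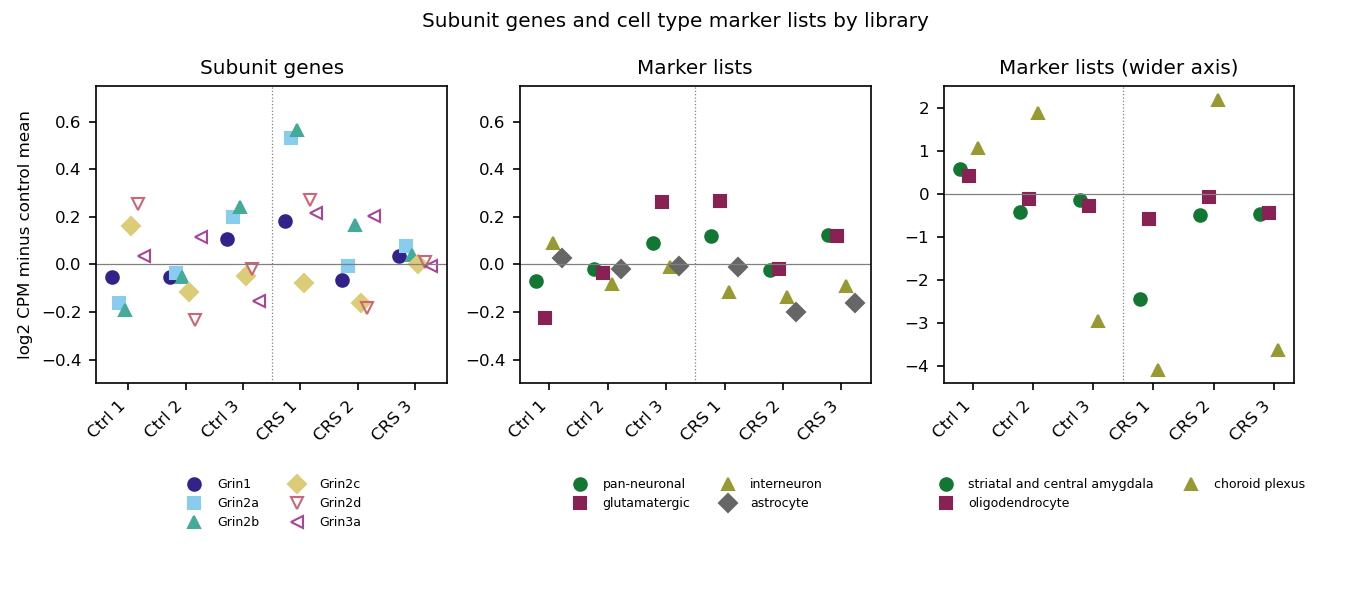
Log2 CPM relative to the control mean (vertical axes) in each of the 6 libraries (horizontal axes) for the 6 subunit genes (left) and, as means of list members, for cell type marker lists (middle and right, the latter on a wider axis). In CRS 1, Grin2a and Grin2b are at their highest while the striatal and central amygdala list is at its lowest, -2.44.

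Proteins that anchor, modify or act downstream of NMDA receptors, and those that supply co-agonist or clear glutamate, were covered by 5 lists with 90 genes, of which 88 were tested (Dao and Slc6a5 were not). None passed (0 of 88, adjusted p over all genes), and 0 had an unadjusted p under 0.05, against 3.37% of all tested genes. There were 45 above and 43 below 0, and the median was 0.0089 on the log2 scale. Between 39 (without CRS 3) and 54 (without Ctrl 3) lay above 0 with each library left out. The groups did not overlap in 5 of 88 (5.68%, against 8.28% of all tested genes). All 5 were lower under stress, where 4.48% of all tested genes were apart in that direction. They were Actn2, Akap5, Psat1, Amt and Slc1a5, named after their values were seen where the rule for named genes did not take them. Slc1a5 had only 11 to 25 counts per library.

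Among 26 scaffolds and trafficking partners, 11 lay above and 15 below 0 (median -0.0076). This balance turned with single libraries, to 18 of 26 above 0 without Ctrl 3 (median 0.044) and 15 of 26 without CRS 2 (median 0.017). Dlg4, the gene of the postsynaptic scaffold PSD-95 that binds GluN2 tails, averaged 382 ± 36.4 CPM in Ctrl and 375 ± 35.0 CPM in CRS (SD, n = 3 per group; log2 difference -0.03 ± 0.09, SE). The smallest unadjusted p in the list were those of Gipc1 (0.20 ± 0.09), a PDZ adaptor of receptor trafficking, the scaffold gene Dlgap1 (0.17 ± 0.08), and Actn2 (-0.51 ± 0.26), an actinin that binds GluN1. Actn2 was lowest in CRS 1, at 11.3 CPM against 20.6 CPM in CRS 2.

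Of 26 kinases and phosphatases, 15 lay above and 11 below 0 (median 0.04), but 12 of 26 were above 0 without CRS 3 (median -0.014). Camk2a, the calcium/calmodulin kinase subunit that docks on GluN2B, was at 1114 ± 174 and 1172 ± 32.1 CPM (log2 fold change 0.07 ± 0.11, SE), and Camk2b at 612 ± 16.2 and 642 ± 65.7 CPM (0.07 ± 0.08). Ptpn5, which encodes the phosphatase STEP that promotes internalisation of NMDA receptors and is abundant in striatum, stood at -0.39 ± 0.17, with its lowest level in CRS 1 (95.5 CPM). Ppp3ca, a calcineurin gene, stood at -0.16 ± 0.08.

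Of 18 genes of calcium and Ras signalling, 13 lay above and 5 below 0 (median 0.02), but 6 of 18 were above 0 without Ctrl 1 (median -0.012) and 7 of 18 without CRS 3 (median -0.035). Nos1, the neuronal nitric oxide synthase that is tethered to receptors through PSD-95, was at 92.2 ± 24.5 and 98.3 ± 35.8 CPM (0.09 ± 0.31). Rasgrf1 (0.19 ± 0.10), a calcium-activated Ras exchange factor, Rasd1 (0.46 ± 0.28) and the spine regulator Kalrn (0.20 ± 0.12) had the smallest unadjusted p in that list. Rasd1 had only 14 to 26 counts per library.

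For co-agonist supply, Srr, the serine racemase that makes D-serine, was at 161 ± 8.76 and 165 ± 7.92 CPM (log2 fold change 0.03 ± 0.07, SE), and the glycine transporter gene Slc6a9 at 27.9 ± 4.27 and 26.5 ± 2.51 CPM (-0.08 ± 0.13). In this list 5 of 14 lay above 0 (median -0.08), and 7 of 14 without Ctrl 1 (median -0.0033). Psat1, an enzyme of L-serine synthesis, had 79.6, 67.3 and 69.6 CPM in Ctrl 1 to 3 and 58.8, 64.0 and 66.2 CPM in CRS 1 to 3 (-0.20 ± 0.09, unadjusted p = 0.0509, adjusted p = 0.997, edgeR), followed by Amt (-0.16 ± 0.09) of the glycine cleavage system and the transporter gene Slc1a5 (-0.44 ± 0.29). Of 4 genes of glutamate clearance, 1 lay above 0, and 3 without CRS 2. The main astrocyte transporter gene Slc1a2 was at 4617 ± 322 and 4471 ± 356 CPM (-0.05 ± 0.09), Slc1a3 at -0.03 ± 0.06 and the neuronal transporter gene Slc1a1 at 0.11 ± 0.08. With libraries scaled to pan-neuronal genes, which moved the median of all tested genes to -0.10, 7 of 26 scaffolds, 5 of 26 kinases and phosphatases, 5 of 18 calcium and Ras genes and 0 of 14 co-agonist genes lay above 0.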

How the data were processed

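The deposited files hold whole-number counts for each gene symbol, 1 table per library, without normalization by the authors. Build mm39, HTSeq 0.13.5, STAR 2.7.7a, edgeR 3.42.4 and FastQC 0.12.1 appear, without roles, in the submitters' processing notes; annotation and strand setting: not given in the sources used here. Rows for reads without a gene were left out of library sizes. Ambiguous reads (0.162 to 0.194%) and reads without a unique alignment (6.97 to 8.16%) were left out too. Shares are of these reads, reads in no gene and reads counted in genes together. Reads in no gene made up 53.0 to 57.4%, with the highest share in CRS 1. That library also had the lowest share of reads counted in genes, 35.5%, where the others had 36.9 to 38.6%. Counts were analysed here with R 4.3.3 and edgeR 4.0.16: filterByExpr (minimum count 10, minimum total 15), TMM, and the quasi-likelihood test with robust, non-legacy estimation, adjusted by Benjamini-Hochberg over 14739 genes, threshold 0.05. Alternatives used limma 3.58.1 and DESeq2 1.42.0. SEs were derived as |log2 fold change| divided by the root of the F statistic. Ratios were compared by exact permutation of log2 values. Lengths and sequence comparisons came from GENCODE M21, of another build, so no coordinates are given. The procedure was tested on simulated counts.

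The members, the 16 gene lists and the libraries to leave out were chosen with earlier results of these data known. Named genes are the 6 subunit genes, Grin3b and Grina, 8 partner genes fixed by name, the 3 members of each partner list with the smallest unadjusted p, the most abundant marker where a list is described, and the 3 genes most like Grin1, Grin2a and Grin2b by Pearson's r. The p-values measure the spread between these 6 libraries; the design text calls the replicates biological without saying whether each was a separate animal. Some items that this rule takes are not reported here.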

Additional observations from a re-analysis of the deposited data

How the results depend on the processing

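Over 20 alternatives for each of the 6 subunit genes, 110 of 120 values kept the sign and the side of the threshold, and the other 10 turned in sign without passing it. Scaling to pan-neuronal genes moved the median of all tested genes from -0.0044 to -0.10, so values near 0 turned with it. The 10 were Grin1 (-0.014 without CRS 1, -0.042 without Ctrl 1 and CRS 1, -0.045 scaled to pan-neuronal genes), Grin2a (-0.050 without Ctrl 1 and CRS 1), Grin2c (0.0066 without Ctrl 1, 0.0040 without Ctrl 1 and CRS 1, 0.014 without Ctrl 1, Ctrl 2 and CRS 2) and Grin2d (-0.072 scaled to pan-neuronal genes, -0.076 without Ctrl 2, -0.099 without CRS 1). Leaving out each library in turn gave -0.014 to 0.11 for Grin1, 0.028 to 0.32 for Grin2a, 0.093 to 0.39 for Grin2b, -0.13 to 0.0066 for Grin2c, -0.099 to 0.18 for Grin2d and 0.065 to 0.21 for Grin3a. Adjusted p stayed between 0.793 and 1.00 in all of them.

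The difference in log2 ratio of Grin2a to Grin2b ranged from -0.10 to 0.00044 with each library left out (above 0 without CRS 2) and was 0.045 without Ctrl 1, Ctrl 2 and CRS 2, where Ctrl 3 was the only control; that of Grin1 to the GluN2 genes ranged from -0.27 to -0.096. Over all genes 0 passed the threshold, against 4 with edgeR's likelihood ratio test, 2 with DESeq2 and 1 without Ctrl 3, and 0 to 1 with each library left out. The cause of these differences was not tested.

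Whether the replicate numbers pair the libraries was not settled. Deviations from the group mean correlated at -0.32, 0.53 and 0.28 between same-numbered libraries, and at -0.64 to 0.48 between differently numbered ones. Such deviations within groups of 3 depend on each other, so these values cannot decide it. With the replicate block 0 genes passed, the log2 fold change of Grin2b was 0.26, and the exact sign-flip p was 0.75 for the Grin2a to Grin2b ratio. The fit without Ctrl 1, Ctrl 2 and CRS 2 assumes that the lone control varies like the stress libraries.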
